A study of Mus musculus with 11 samples.

Results

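CDX2 binding in villus epithelium of the mouse jejunum was compared between Hnf4a knockout and wild type by chromatin immunoprecipitation and sequencing (ChIP-seq). The members are every peak of the 3 CDX2 lists that the authors deposited, 25330 of the 57382 factor peaks in the series. The Hnf4a knockout list (1 library) held 5768 peaks, and the wild-type lists (2 libraries) held 12121 peaks in library 1 and 7441 peaks in library 2. All 3 libraries came from mice on a mixed 129xC57BL6 background, with the same CDX2 antibody. The protocols describe villi released with 15 mM EDTA, held back on a 70 µm filter and fixed with formaldehyde, and libraries made from ChIP DNA pooled over several immunoprecipitations. Neither the age of the mice nor the means by which Hnf4a was deleted is given in the sources used here. The wild-type libraries share a source name, and no label says whether they came from separate animals.

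CDX2 is a homeodomain transcription factor that specifies and maintains intestinal epithelium and binds AT-rich DNA. HNF4A is a nuclear receptor of enterocytes that binds DNA as a homodimer, and it shares many intestinal enhancers with CDX2. Dimethylation of histone H3 at lysine 4 (H3K4me2) marks the nucleosomes beside active enhancers and promoters, and the authors mapped it as single nucleosomes. The comparison asks whether CDX2 occupies the same sites when HNF4A is missing.

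A peak was called again where a peak of another list overlapped it by 1 bp or more. Each peak carries a score that the authors deposited, in lists whose peak names contain the word MACS, a peak caller. The lowest score is 50. The sources used here do not give the score's meaning, and reads per library are unknown. A site missing from a list may thus be bound but under the caller's threshold. Each share carries an exact Clopper-Pearson 95% interval, and each difference, in percentage points, a Newcombe interval. Where 2 shares of the same peaks were compared, the interval came from the peaks that differed. All intervals cover counting error only, and neighbouring peaks are not independent. The knockout had 1 library, so no p-value between conditions was computed, and the overlap of the wild-type libraries served as the yardstick. Positions are of build mm9, counted from 1. No genome or gene annotation of that build was used here, so sites are given by position without gene names.

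The knockout list was the shortest and resembled wild-type library 2 more than library 1 in its summary values. Peak widths had a median of 248 bp in the knockout, against 570 bp in wild-type library 1 and 255 bp in library 2. The median score was 57.67 in the knockout, against 70.42 in library 1 and 57.99 in library 2. Scores of 100 or more were held by 253 knockout peaks, against 2885 peaks of library 1 and 470 of library 2. The peaks covered 1.57 Mb in the knockout, against 7.54 Mb in library 1 and 2.04 Mb in library 2. The knockout list had 19 peaks on chromosome Y, against 2 in library 1 and 17 in library 2, and 10 of the 19 lay at library 2 peaks and 0 at library 1 peaks. A difference between the knockout and library 1 can therefore also be a difference between library 1 and library 2, and both libraries are given throughout.

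Both wild-type libraries had fewer peaks called again in the knockout than in each other. Of library 1 peaks, 8.6% were called in the knockout (8.11 to 9.12), against 13.1% in library 2 (12.47 to 13.7), a difference of −4.46 points (−5.06 to −3.87). Of library 2 peaks, 11.6% were called in the knockout (10.8 to 12.3), against 21.4% in library 1 (20.5 to 22.4), a difference of −9.89 points (−10.8 to −9.00). Library 1 has the most and the widest peaks, so the last comparison sets a short list against a long one. From the side of the knockout, 18.2% of its peaks were called in library 1 (17.2 to 19.2) and 14.9% in library 2 (14.0 to 15.9). Peaks called in 2 lists were called in the remaining one more often than other peaks. Of library 1 peaks also in library 2, 39.2% were in the knockout, against 4.00% of those not in library 2. Of library 1 peaks also in the knockout, 59.5% were in library 2 (56.5 to 62.5), against 8.69% of those not in the knockout. Of library 2 peaks also in the knockout, 71.9% were in library 1 (68.7 to 74.8), against 14.9% of those not in the knockout.

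Among the strongest peaks, the knockout and library 2 overlapped more than the wild-type libraries did. With the 100 highest-scoring peaks of each list, 47 library 2 peaks lay at knockout peaks, against 28 at library 1 peaks, a difference of 19 points (7.67 to 30.3). With 250 peaks of each list, 42.8% of library 2 peaks lay at knockout peaks and 32.0% at library 1 peaks, a difference of 10.8 points (3.12 to 18.5). At 500 peaks the difference was 3.40 points (−1.25 to 8.05), and at 1000 peaks it was −0.80 points (−3.95 to 2.35). At 2000 peaks it was −6.25 points (−8.22 to −4.28) and at 5000 peaks −6.44 points (−7.53 to −5.35). The difference for library 2 thus turned direction as weaker peaks entered the lists.

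For library 1 the difference was below 0 at every list length from 250 peaks on. Of its 100 highest-scoring peaks, 32 lay at the 100 highest knockout peaks and 28 at the 100 highest of library 2, a difference of 4.00 points (−5.16 to 13.2). From 250 to 5000 peaks the difference lay between −6.40 and −5.00 points, with intervals below 0 throughout. All of these rank comparisons used lists of equal length, but the scores at a rank were not equal. The 1000th peak scored 71.39 in the knockout, against 157.9 in library 1 and 79.25 in library 2.

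**Figure D1:**
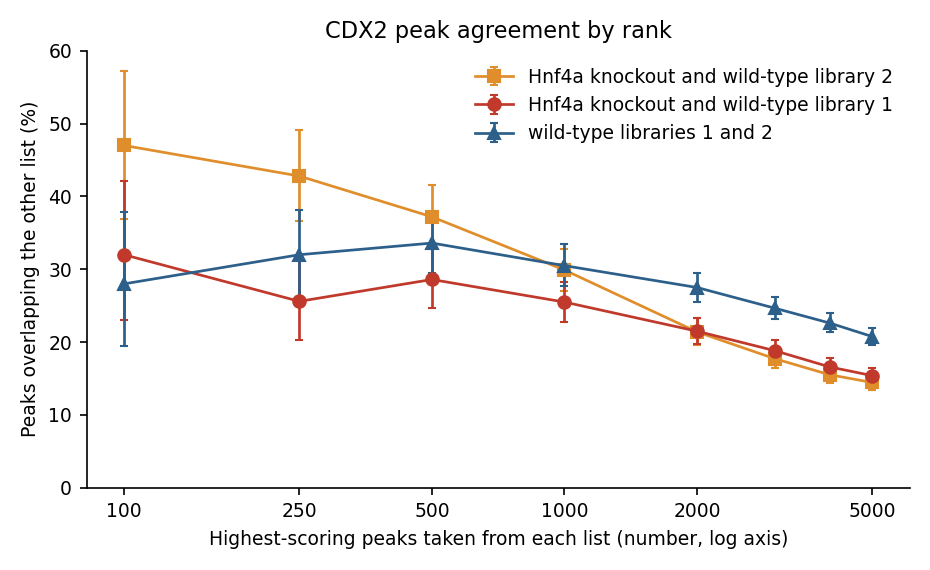
Share of CDX2 peaks that overlap between lists (vertical axis, percent) when the same number of highest-scoring peaks is taken from each list (horizontal axis, log scale). Orange is the share of library 2 peaks and red of library 1 peaks found in Hnf4a knockout, blue the share of library 1 peaks found in library 2, and bars are exact 95% intervals. The knockout and library 2 share 47.0% at 100 peaks, and at 2000 peaks or more both knockout curves lie below the wild-type curve.

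CDX2 sites of both wild-type libraries were defined as merged regions of overlapping library 1 and library 2 peaks, which gave 1584 sites. A site was kept where a knockout peak overlapped it, and lost otherwise. Kept sites numbered 621, or 39.2% (36.8 to 41.7), and lost sites numbered 963. Few losses were near misses: a knockout peak lay within 1 kb of the edge of 11 lost sites, or 1.14% (0.572 to 2.03), and within 10 kb of 76, or 7.89% (6.27 to 9.78). The kept share per chromosome ran from 23.9% on chromosome 9 (14.3 to 35.9, 67 sites) to 53.1% on chromosome 12 (40.2 to 65.7, 64 sites).

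The kept share differed more between the highest and lowest groups by wild-type score than between those by site width. H3K4me2, HNF4A and neighbouring peaks split the sites by presence or absence, so their differences are not on the same scale. The site score was the mean over both libraries of the highest score at the site, with a median of 131.8 at kept sites and 82.61 at lost sites. In 4 equal groups by this score, from lowest to highest, the kept share was 14.9%, 27.0%, 42.4% and 72.5%, so the highest group exceeded the lowest by 57.6 points (51.6 to 62.8). For single libraries the same difference was 20.8 points without library 2 and 25.6 points without library 1. Of the 100 highest-scoring sites, 91 were kept (83.6 to 95.8%). Each library carried the same order by its own score. In 4 groups by the library 1 score, the kept share ran from 18.9% to 66.9%, and in 4 groups by the library 2 score it ran from 20.2% to 69.2%. Sites above the median in both libraries were kept at 66.0% (61.7 to 70.1, 509 sites). Those above it in library 1 alone were kept at 37.1% (31.5 to 43.0, 283 sites), those above it in library 2 alone at 35.1% (29.5 to 41.0, 282 sites), and those above it in neither at 15.9% (12.8 to 19.3, 510 sites).

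The same rise with score appeared between the wild-type libraries. From the lowest to the highest of 4 score groups, library 1 peaks were called in the knockout at 2.21%, 3.43%, 5.74% and 23.0%, and in library 2 at 3.33%, 6.77%, 10.5% and 31.7%. Library 2 peaks were called in the knockout at 4.14%, 5.05%, 7.31% and 29.7%, and in library 1 at 9.84%, 10.8%, 16.9% and 48.3%. In all 4 score groups of both libraries the knockout share was below that of the other wild-type library. Equal score does not mean equal rank in the list that is searched, and with equal list lengths the order was as described above.

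**Figure D2:**
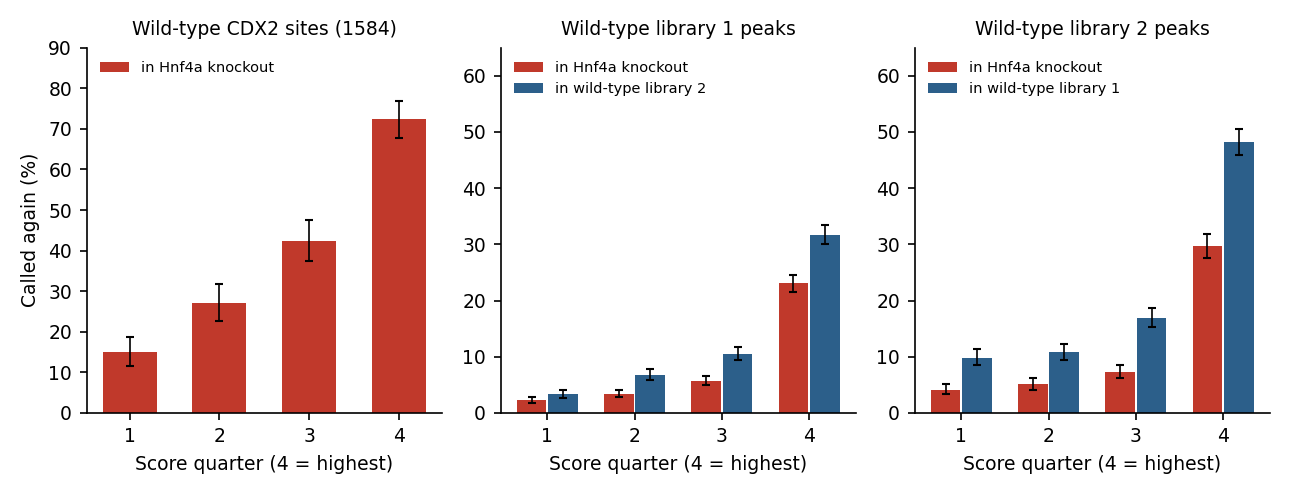
Share called again (percent) in 4 equal groups by peak or site score, for wild-type CDX2 sites (left), library 1 peaks (middle) and library 2 peaks (right). Red bars are shares called in Hnf4a knockout, blue bars shares called in the other wild-type library, with exact 95% intervals. At the sites the kept share was 14.9% in the lowest group and 72.5% in the highest.

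At most of the 621 kept sites the score was lower in the knockout than in either wild-type library, and the wild-type libraries also differed from each other. The median score was 77.60 in the knockout, against 158.1 in library 1 and 91.53 in library 2. The knockout score was below that of library 1 at 533 sites and below that of library 2 at 410 sites. The median ratio of knockout to library 1 was 0.496 (interquartile range 0.327 to 0.776), and of knockout to library 2 it was 0.862 (0.657 to 1.09). The ratio of library 2 to library 1 was 0.604 (0.407 to 0.874), so the knockout stood closer to library 2 than the wild-type libraries stood to each other. Across the 621 sites, Spearman's rho was 0.48 between knockout and library 2, 0.30 between knockout and library 1 and 0.40 between the wild-type libraries. These correlations describe sites chosen for passing the threshold in every list. Binding in fewer cells, weaker binding in each cell and a difference in reads per library, which are unknown, cannot be told apart in such data. The ratio of knockout to library 2 had a median of 0.819 at the 284 kept sites with a wild-type HNF4A peak and 0.887 at the 337 without. For knockout to library 1 the medians were 0.446 with HNF4A and 0.544 without. The ratio of library 2 to library 1 had medians of 0.571 and 0.615 at the same sites, so a gap in the same direction existed within wild type.

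**Figure D3:**
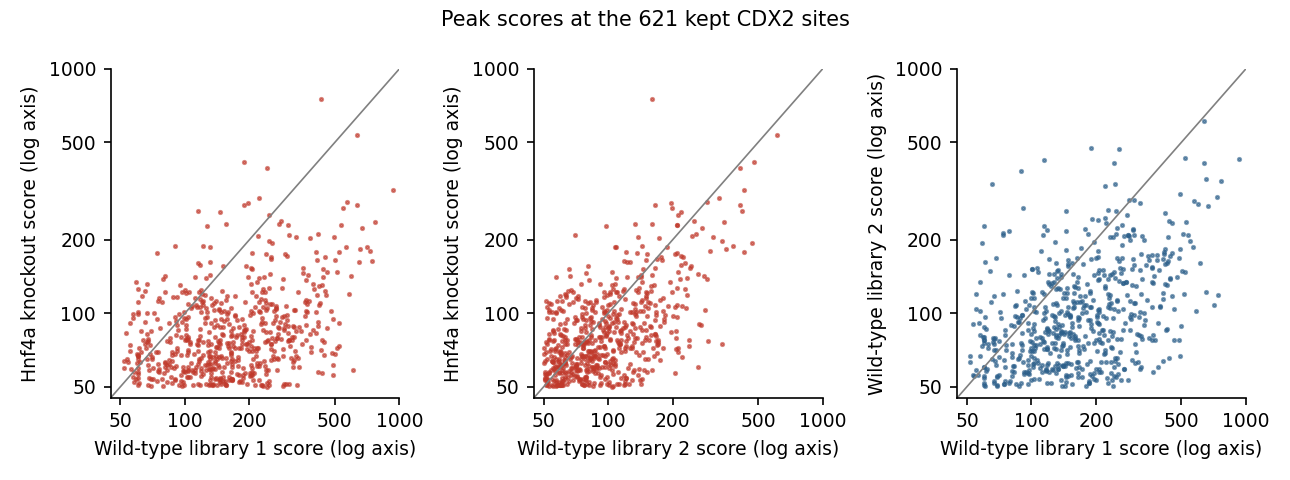
Peak scores at the CDX2 sites called in all 3 lists, 1 point per site, both axes on a log scale, with the grey line marking equal scores. The left and middle plots set Hnf4a knockout against library 1 and library 2, the right plot library 2 against library 1. Points lie mostly under the line in each plot, with median ratios of 0.496, 0.862 and 0.604.

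The highest-scoring kept sites varied in how much score they held in the knockout. On chromosome 3, the site at 101588470 to 101589270 scored 278.0 in the knockout, against 635.6 in library 1 and 413.9 in library 2. It held an HNF4A peak and 3 H3K4me2 nucleosomes within 1 kb in wild type. On chromosome 5, the site at 99439370 to 99440648 scored 237.0 in the knockout, against 767.2 and 347.8 in wild type. At the site on chromosome 5 at 150294045 to 150295009 the knockout score of 164.0 fell between the wild-type scores of 744.8 and 118.8. That site had no H3K4me2 nucleosome within 1 kb in wild type. Of the 10 highest-scoring kept sites, 5 held a wild-type HNF4A peak and 8 held a wild-type nucleosome within 1 kb. Over all kept sites these shares were 45.7% and 77.6%.

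A few kept sites stood far apart in rank between knockout and wild type, where both ranks are among the 621 kept sites only. On chromosome 1, the site at 74454882 to 74456367 had the highest score of the knockout list, 753.4, against 430.9 in library 1 and 160.3 in library 2, and it ranked 1 in the knockout and 43 by wild-type site score. It carried an HNF4A peak and 8 nucleosomes in wild type. The site on chromosome 17 at 24591773 to 24592524 scored 283.6 in the knockout, against 196.6 and 195.3 in wild type, and ranked 8 in the knockout and 150 in wild type. In the other direction, the site on chromosome 1 at 187326141 to 187326831 scored 58.75 in the knockout, against 610.5 and 160.8, and ranked 500 in the knockout and 15 in wild type. On chromosome 7, the site at 54088797 to 54089673 scored 73.71 in the knockout, against 523.8 and 237.0. The site on chromosome 17 at 66945038 to 66946445 scored 57.02 in the knockout, against 435.5 and 205.4, although 8 wild-type nucleosomes surrounded it. Each of these is a single measurement in the knockout, with no replicate.

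The 10 highest-scoring lost sites all scored higher in library 1 than in library 2, as did the 10 highest-scoring kept sites. Library 2 scored below library 1 at 80.4% of all kept sites and 77.7% of all lost sites. The site on chromosome 3 at 131229249 to 131229742 had no knockout peak and scored 626.9 in library 1 and 77.90 in library 2. On chromosome 15, the site at 77305129 to 77306218 scored 629.0 in library 1 and 50.02 in library 2, next to the lowest score listed. On chromosome 14, the site at 121963080 to 121963805 scored 525.0 and 176.4, and that on chromosome 4 at 119864286 to 119866165 scored 318.6 and 176.7. Over the 10 highest-scoring lost sites, library 2 scores ran from 50.02 to 176.7, against 118.8 to 614.2 over the 10 highest-scoring kept sites. By wild-type site score these lost sites ranked 17 to 118 and the kept sites 1 to 10, so they were not matched for score. H3K4me2 was present at all 10 of these lost sites, with 1 to 8 nucleosomes within 1 kb in wild type, against 74.5% of all lost sites. The share with a nucleosome rose with score: in 4 equal score groups of all sites it was 62.6% in the lowest and 86.6% in the highest. In the H3K4me2 list of Hnf4a knockout the 10 lost sites held 2 to 8 nucleosomes at a score of 52 or more, so the mark was still called where CDX2 was not.

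Wider sites were kept more often over all sites, while within groups of like score no interval excluded 0. In 4 equal groups by width, from narrowest to widest, the kept share was 34.1%, 34.3%, 42.4% and 46.0%, a difference of 11.9 points (5.05 to 18.5) between widest and narrowest. It was 19.7 points without library 1 and 6.86 points without library 2. A wider region meets another peak more readily, and wide sites also had wild-type nucleosomes more often, at 93.7% in the widest and 52.3% in the narrowest group. Within the 4 score groups, sites wider than their group's median were kept at 15.2%, 24.7%, 40.9% and 70.2%. Narrower sites in the same groups were kept at 14.6%, 29.3%, 43.9% and 74.7%. All 4 differences, from −4.55 to 0.505 points, had intervals that included 0.

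H3K4me2 nucleosomes of wild type were called at most kept and most lost sites. A nucleosome was called within 1 kb of the site centre at 77.6% of kept sites (74.1 to 80.8) and 74.5% of lost sites (71.6 to 77.2), a difference of 3.16 points (−1.18 to 7.37). With library 1 peaks alone the difference was 16.4 points (13.5 to 19.1), and with library 2 peaks alone it was 39.8 points (36.4 to 43.2). With the 5000 highest-scoring peaks of each list it was −2.27 points (−7.10 to 2.52). The mean number within 1 kb was 2.99 at kept sites and 2.71 at lost sites. Within 500 bp the shares were 76.8% and 72.1%, and this difference of 4.75 points had an interval above 0 (0.316 to 9.04). The kept share by number of nucleosomes was 36.1% with 0, 35.8% with 1 to 2, 41.6% with 3 to 5 and 44.7% (38.5 to 51.0) with 6 or more. The median wild-type site scores in the same order were 79.48, 100.5, 105.4 and 111.0. Within the 4 score groups, the kept share of sites with a nucleosome minus that of sites without was −1.02, −9.08, −6.99 and −9.995 points, and each of these intervals included 0.

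HNF4A peaks of wild type lay at somewhat under 50% of both kinds of site. An HNF4A peak overlapped 45.7% of kept sites (41.8 to 49.7) and 41.5% of lost sites (38.4 to 44.7), a difference of 4.20 points (−0.796 to 9.19). In the 4 score groups from lowest to highest, sites with HNF4A were kept at 16.0%, 22.0%, 39.5% and 72.5%, against 14.4%, 30.4%, 45.3% and 72.4% for sites without. The differences ran from −8.37 to 1.53 points, and each interval included 0. Peaks of single libraries, set against the yardstick, differed by more points where HNF4A was present. A difference can fall no further below 0 than the share called in the other wild-type library, which was lower without HNF4A. Of library 2 peaks with HNF4A, 32.1% were called in the knockout (29.0 to 35.3) and 73.9% in library 1 (70.9 to 76.8), a difference of −41.8 points (−45.2 to −38.4), against −5.61 points (−6.46 to −4.76) for those without. Of those library 2 peaks without HNF4A, 8.80% were called in the knockout and 14.4% in library 1. For library 1 peaks the differences were −8.42 points (−9.80 to −7.04) with HNF4A and −3.05 points (−3.69 to −2.41) without. The library 1 shares were 12.9% in the knockout and 21.4% in library 2 with HNF4A, against 7.06% and 10.1% without. With the 5000 highest-scoring peaks of each list, the library 2 differences were −30.8 points (−34.7 to −26.9) with HNF4A and −2.32 points (−3.35 to −1.28) without. With 1000 peaks they were −8.65 points (−14.5 to −2.79) and 3.37 points (−0.273 to 7.01). For library 1 they were −9.56 points (−11.6 to −7.51) and −3.04 points (−4.35 to −1.73) with 5000 peaks. With 1000 peaks the library 1 differences were −9.03 points (−13.3 to −4.77) with HNF4A and −1.50 points (−5.23 to 2.24) without. HNF4A overlapped 35.6% of the 5000 highest-scoring library 1 peaks, against 9.30% in the knockout and 14.5% in library 2, and the role of this gap between libraries was not tested.

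**Figure D4:**
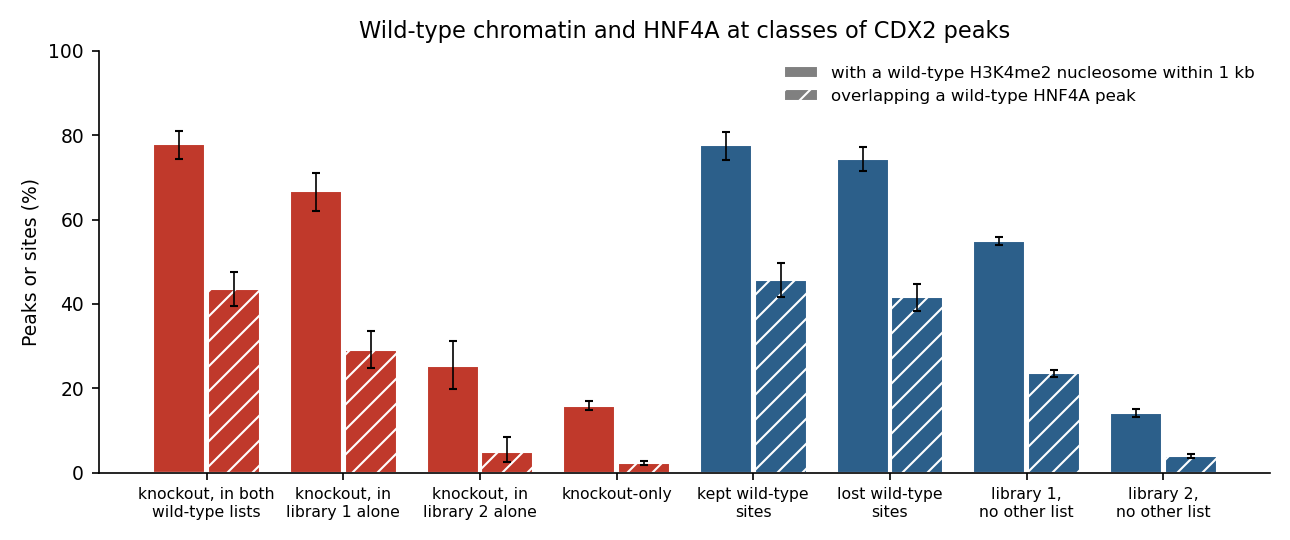
Share of CDX2 peaks or sites (percent) with a wild-type H3K4me2 nucleosome within 1 kb (plain bars) and overlapping a wild-type HNF4A peak (hatched bars), with exact 95% intervals. Red bars are classes of the Hnf4a knockout list by the wild-type lists they were found in, blue bars are wild-type sites and single-library wild-type peaks. Kept and lost sites stand at 77.6% and 74.5% for the mark, knockout-only peaks at 15.9%.

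Set against the yardstick, peaks of single libraries fell short in the knockout by more points where the mark was present. Of library 2 peaks with a wild-type nucleosome within 1 kb, called marked here, 26.3% were called in the knockout (24.4 to 28.2) and 58.6% in library 1 (56.4 to 60.7), a difference of −32.3 points (−34.6 to −30.0). Of the unmarked ones, 5.93% were called in the knockout and 7.25% in library 1, a difference of −1.32 points (−2.08 to −0.560). With the 5000 highest-scoring peaks of each list the differences were −22.8 points (−25.4 to −20.2) at marked and 1.33 points (0.409 to 2.25) at unmarked library 2 peaks. With 1000 peaks of each list they were −4.44 points (−8.83 to −0.0585) and 5.41 points (1.41 to 9.40). For library 1 the same differences with 5000 peaks were −7.34 points (−8.77 to −5.90) at marked and −1.08 points (−2.75 to 0.592) at unmarked peaks. With 1000 peaks the library 1 differences were −6.46 points (−9.72 to −3.21) and 0.474 points (−5.02 to 5.97). In both libraries the difference in points was further below 0 at marked than at unmarked peaks. It can fall no further below 0 than the share called in the other wild-type library, which was lower at unmarked peaks. Of all marked library 1 peaks, 10.8% were called in the knockout and 17.0% in library 2, against 5.54% and 7.58% of unmarked ones. Library 1 was itself rich in marked peaks: 68.4% of its 5000 highest-scoring peaks were marked, against 27.6% in the knockout and 32.2% in library 2. Whether this difference between libraries sets the shortfall was not tested.

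Peaks found in library 2 and the knockout but not in library 1 numbered 242 in the knockout list. Of these, 25.2% were marked (19.9 to 31.2), against 77.8% of knockout peaks in both wild-type libraries (74.3 to 81.0) and 66.7% of those in library 1 alone (62.0 to 71.1). HNF4A overlapped 4.96%, 43.5% and 29.2% of these groups. The widest knockout peak, on chromosome 16 at 3231537 to 3237814 with 6278 bp, belonged to the first group and had no wild-type nucleosome within 1 kb. The next widest, on chromosome Y at 2850291 to 2853690 and at 2889945 to 2893256, also matched library 2 peaks and no library 1 peak.

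Knockout-only peaks were narrower and lower in score than the other knockout peaks, and most lay away from H3K4me2. They numbered 4476, or 77.6% of the list (76.5 to 78.7), with a median score of 56.11 and a median width of 241 bp. The other 1292 knockout peaks had medians of 66.47 and 284 bp. A wild-type nucleosome lay within 1 kb of 15.9% of knockout-only peaks (14.9 to 17.0) and 64.2% of the others (61.6 to 66.9), a difference of −48.3 points (−51.1 to −45.4). Among the others the share depended on the wild-type list, as given above. It was 77.8% for peaks in both, 66.7% for those in library 1 alone and 25.2% for those in library 2 alone. HNF4A overlapped 2.30% of knockout-only peaks (1.88 to 2.78) and 31.5% of the others (29.0 to 34.1). Of the 459 knockout peaks with both HNF4A and a nucleosome in wild type, 82.8% were called in a wild-type CDX2 list (79.0 to 86.1). That share was 41.5% (38.6 to 44.5) with a nucleosome alone and 10.4% (9.51 to 11.4) with neither. With HNF4A alone it was 52.9% (38.5 to 67.1, 51 peaks). In 4 equal score groups of the knockout list, from lowest to highest, 15.6%, 14.0%, 16.1% and 19.3% of knockout-only peaks were marked. The peaks shared with wild type stood at 60.9%, 60.1%, 55.1% and 70.1% in the same groups, so the gap was present in all 4.

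Knockout-only peaks were close in their values to library 2 peaks in no other list. The share marked was 15.9% for knockout-only peaks and 14.2% for library 2 peaks in no other list (13.3 to 15.1), a difference of 1.78 points (0.374 to 3.19). HNF4A overlapped 2.30% of knockout-only peaks and 3.91% of the library 2 ones (3.42 to 4.45), a difference of −1.61 points (−2.28 to −0.930). Their median scores were 56.11 and 56.58 and their median widths 241 and 244 bp. Library 1 peaks in no other list differed from both, with 54.9% marked (53.9 to 55.9), 23.6% at HNF4A (22.7 to 24.4) and a median width of 560 bp. Knockout-only peaks were 77.6% of their list, against 83.5% for library 1 and 75.3% for library 2 peaks in no other list.

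H3K4me2 nucleosomes at knockout-only peaks were about as many in Hnf4a knockout as in wild type. With both nucleosome lists limited to a score of 52 or more, 719 of the 4476 peaks had a nucleosome within 1 kb in Hnf4a knockout, against 708 in wild type. The means were 0.558 nucleosomes per peak in Hnf4a knockout and 0.555 in wild type, a ratio of 1.01. A nucleosome was called in Hnf4a knockout alone at 73 of these peaks and in wild type alone at 62. At kept sites the means were 3.28 and 2.92, a ratio of 1.12, and at lost sites they were 2.90 and 2.66, a ratio of 1.09. At peaks in no other list the ratio was 1.08 for library 2 and 1.04 for library 1. At a score of 52 or more the whole lists held 250282 nucleosomes in Hnf4a knockout and 245431 in wild type. Of the lost sites marked in wild type, 18 of 714, or 2.52%, had no nucleosome in Hnf4a knockout, against 9 of 476, or 1.89%, of kept sites. Each nucleosome list is 1 library.

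Wild-type nucleosomes were concentrated around kept and lost sites, with fewer in the innermost 100 bp on each side of the centre than in the next 100 bp. Kept sites had 240 nucleosomes, or 0.386 per site, within 100 bp of the centre and 315, or 0.507 per site, at 100 to 200 bp. Lost sites had 357, or 0.371 per site, and 430, or 0.447 per site, at the same distances. In Hnf4a knockout, with scores of 52 or more, the counts were 221 and 312 at kept sites and 348 and 423 at lost sites. Knockout-only peaks had the reverse order in wild type, with 391 nucleosomes within 100 bp and 312 at 100 to 200 bp. Library 2 peaks in no other list shared this order: of their 655 nucleosomes within 200 bp, 338 lay within 100 bp. In the 200 bp before and after the centre, kept sites had 0.454 and 0.436 nucleosomes per site and lost sites had 0.410 and 0.406. Between 1800 and 2000 bp before the centre the values were 0.116 and 0.0987. Knockout-only peaks had 0.0791 and 0.0777 nucleosomes per peak beside the centre and 0.0315 at 1800 to 2000 bp, so their centres still stood above their flanks. Library 2 peaks in no other list had 0.0593 and 0.0576 beside the centre.

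**Figure D5:**
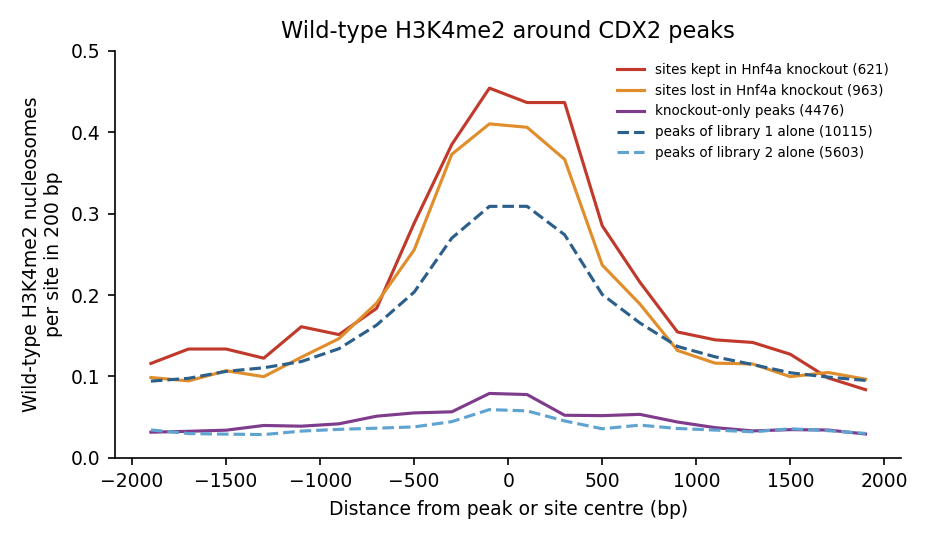
Wild-type H3K4me2 nucleosomes per site in 200 bp bins (vertical axis) by distance from the centre of the CDX2 peak or site (horizontal axis, bp). Solid lines are kept and lost wild-type sites and knockout-only peaks, dashed lines are peaks of a single wild-type library. Kept and lost sites reach 0.454 and 0.410 in a bin beside the centre, knockout-only peaks 0.0791; these bins are too wide to show the lower counts in the innermost 100 bp at kept and lost sites.

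The 10 highest-scoring knockout-only peaks had 0 to 4 wild-type nucleosomes within 1 kb. The first, on chromosome 17 at 86795146 to 86795451, scored 149.4 and had none. That on chromosome 11 at 26702577 to 26702893 scored 137.1 and had 2 wild-type nucleosomes within 1 kb. That on chromosome 15 at 31654025 to 31654325 scored 132.4 and also had 2. The peak on chromosome X at 121306886 to 121309049 scored 135.2 and was 2164 bp wide, with 4 wild-type nucleosomes. None of the 10 highest-scoring knockout-only peaks overlapped an HNF4A peak, against 2.30% of all knockout-only peaks. Of the 10, 5 had a wild-type nucleosome within 1 kb and 5 had none, while 15.9% of all knockout-only peaks had one. The knockout-only peaks in the fullest chromatin scored near the threshold, as did most knockout-only peaks. Over all of them the median score was 56.11 and the upper quartile 62.35, with medians of 56.97 at marked and 56.06 at unmarked ones. The first of these, on chromosome 11 at 23979775 to 23979938, scored 61.70 with 10 nucleosomes in each of the wild-type and Hnf4a knockout lists. The other 4 of the 5 fullest scored 50.50 to 56.39 with 9 wild-type nucleosomes each.

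Peaks with high scores were also absent from other lists within wild type. The highest-scoring library 1 peak in no other list, on chromosome 13 at 59662455 to 59663586, scored 787.1, and the 5 highest, 1132 to 5353 bp wide, had no wild-type nucleosome within 1 kb. The highest-scoring library 2 peak in no other list scored 219.4 and also had none. The highest knockout-only score, 149.4, was below both.

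Kept and lost sites had neighbouring CDX2 peaks at similar shares. A neighbour was another CDX2 peak or site of the same condition with its centre nearer than a fixed distance, which is given with the processing steps. Kept sites had a wild-type neighbour at 41.5% (37.6 to 45.5) and lost sites at 43.7% (40.6 to 46.9), a difference of −2.17 points (−7.12 to 2.82). With library 1 peaks alone it was 1.38 points (−1.62 to 4.47), and with library 2 peaks alone 7.37 points (4.80 to 10.2). With neighbours within 5 kb it was 0.349 points (−3.95 to 4.76). These wild-type neighbours included peaks of a single library. Where only other sites of both libraries were counted, 9.02% of kept and 7.58% of lost sites had a neighbour. That difference was 1.44 points (−1.29 to 4.37). Within the 4 score groups the kept share with a neighbour minus that without was −1.90, −13.3, −4.71 and −0.639 points, and the interval excluded 0 in the second group alone (−21.6 to −4.59). Joining sites closer than that distance gave 67 clusters of 2 or 3 sites, of which 13 kept all their sites, 23 kept none and 31 were mixed. Clustered sites were kept at 43.2% (34.8 to 51.8, 139 sites) and single sites at 38.8% (36.3 to 41.4, 1445 sites).

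The clusters of 3 sites included one on chromosome 11 at 99297795 to 99316580 with 31 wild-type nucleosomes, where 2 of 3 sites were kept. Its highest score was 151.8 in the knockout, against 419.0 in library 1 and 145.9 in library 2. In a cluster on chromosome 6 at 52144006 to 52151478, 1 of 3 sites was kept, with a highest score of 52.57 in the knockout, against 245.7 and 77.07 in wild type. Another, on chromosome 11 at 87502823 to 87523943, also kept 1 of 3 sites.

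Within the knockout list, 7.80% of knockout-only peaks had a neighbour (7.03 to 8.62), against 13.9% of the others (12.0 to 15.9), a difference of −6.06 points (−8.19 to −4.10). When peaks scoring under 70 were left out of all lists, that difference was 0.223 points (−2.21 to 2.57). This cut left 1080 knockout peaks and also removed weaker neighbours, so it cannot show whether the difference holds at stronger peaks. The difference was −7.33 points (−9.72 to −5.17) with 5000 peaks of each list. With the 5000 highest-scoring peaks of each list, 8.10% of knockout peaks had a neighbour (7.36 to 8.89), against 23.5% in library 1 (22.3 to 24.7) and 9.22% in library 2 (8.43 to 10.1). The largest cluster of knockout-only peaks, 6 peaks on chromosome 8 at 19958559 to 19986014, scored up to 88.13. A cluster of 3 lay on the same chromosome at 19921240 to 19928050. A cluster of 4 lay on chromosome Y at 2856933 to 2863432.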

How the data were processed

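CDX2 ChIP-seq peak lists of Hnf4a knockout (1 library) and wild-type villi (2 libraries) were compared, with the wild-type HNF4A peak list and the H3K4me2 nucleosome lists of Hnf4a knockout and wild type as annotation. Groups were taken from the sample titles. The peak score is the authors' deposited value per peak. The sources used here name neither its meaning nor the aligner or control. The deposited H3K4me2 lists give each nucleosome a score, −10*log10(pvalue) per the file headers. Coordinates are mm9, per the submitters' processing notes. The authors made 1 list per library, so replicates can be compared only through overlap.

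Overlap, nucleosome counts within 1 kb of centres, neighbours within 12500 bp and interval estimates were computed with Python 3.11.15, pandas 2.3.3, numpy 2.4.6 and SciPy 1.17.1, and were tested on simulated lists. The H3K4me2 list of Hnf4a knockout reaches down to a score of 1.7 and that of wild type to 50.1, so both were limited to 52 or more where they were compared. Depth is unknown.

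The members, definitions and sites were chosen with earlier results of these data known. Sites to name were the first 10 by score among kept sites, lost sites and knockout-only peaks. They were also the first 5 by rank change, nucleosome number, single-library score and cluster size; some of them, and the widest peaks, are described. Rank change was selected on knockout ranks among kept sites and wild-type ranks among all sites, and the ranks printed are both among kept sites. Genes near sites and motifs in their sequence were not analysed here. Alternatives were stricter scores, equal list lengths, equal widths, other windows and single wild-type libraries. HNF4A in Cdx2 knockout, the H3K4me2 lists of villi lacking Cdx2 and input DNA were not used here.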

Additional observations from a re-analysis of the deposited data

How the results depend on the processing

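Of 79 alternative values, 52 lay within the interval of the reported value, and 5 had the opposite sign. Of these 5, 4 belong to differences of kept minus lost sites whose reported interval includes 0. The kept share of wild-type CDX2 sites was 47.3% with the 5000 highest-scoring peaks of each list and 57.4% with 1000, a setting chosen after seeing the data, as were the HNF4A splits at equal list lengths. With a single wild-type library it ran from 8.605% to 11.6%, since sites then need no second library. The knockout-minus-other-library difference was −5.36 points for library 1 with 5000 peaks, and for library 2 it was −23.7 at a score of 70 or more, −6.44 with 5000 peaks and −0.80 with 1000. Knockout-only peaks were 53.3% of the list at a score of 70 or more, 79.8% with 5000 peaks, 61.9% with 1000, and 81.8% to 85.1% with a single wild-type library. With a single wild-type library, the kept share of the highest minus the lowest score group ran from 20.8 to 25.6 points, and of the widest minus the narrowest width group from 6.86 to 19.7 points. The H3K4me2 difference of kept minus lost sites was −2.27 points with 5000 peaks and 16.4 to 39.8 with a single library. For knockout-only minus other knockout peaks it was −52.5 points at a score of 70 or more, −42.9 with nucleosomes scoring 100 or more, and −56.8 to −42.6 with a single library. The neighbour difference of kept minus lost sites was −2.17 points as reported, ran from 1.38 to 7.37 points with a single library and was 0.349 within 5 kb. For knockout-only minus other knockout peaks it turned to 0.223 at a score of 70 or more, and was −3.26 points within 5 kb and −8.85 within 50 kb. Beyond the number of peaks or libraries used, the cause was not tested. No paired analysis was possible because the knockout has 1 library and no test was run. The knockout has no replicate, depth is unknown, and an uncalled peak may be bound below the caller's threshold.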
